A study of Mus musculus with 4 samples.

Results

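The circadian clock genes Arntl, Clock, Per1, Per2, Per3, Cry1, Cry2, Dbp, Nr1d1 and Nr1d2 were chosen by name, as the 10 genes that make up the core transcriptional clock of mouse cells. All 10 were present in the soleus table of 23420 genes, and all 10 were among the 13287 genes tested, which had a mean of at least 10 normalized counts. The question was whether the 4 soleus libraries differed in the state of the clock, so each library was read singly before any group was compared.

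The clock of mammalian cells is a transcriptional feedback loop. The proteins of Arntl (BMAL1) and Clock bind E-boxes and activate the Per and Cry genes, whose proteins return to the nucleus and repress their own activators. In a second loop Nr1d1 and Nr1d2 (REV-ERB alpha and beta) repress Arntl, Clock, Npas2 and Cry1 through ROR elements (ROREs), and Dbp, an E-box target and output factor, activates Per genes through D-boxes. In mouse peripheral tissues, skeletal muscle included, Arntl and Npas2 mRNA cycle in opposite phase to Dbp and Per3, Nr1d1 peaks earlier in the day than Dbp, and Clock mRNA cycles weakly.

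Soleus muscle, a slow postural muscle of the calf, was taken from C57BL/6 mice of 10 weeks and sequenced as 1 library per mouse. The 2 controls, mice 3-8 and 3-12, were labelled MyoDCre-;LoxP-/-, and the 2 muscle-specific HuR knockouts (muHuR-KO), mice 1-9 and 3-9, MyoDCre+;LoxP-/-. The methods of the study describe floxed Elavl1 alleles in both groups, with Cre driven by the MyoD promoter only in muHuR-KO mice. Cells outside the muscle lineage therefore keep HuR, the RNA-binding protein that Elavl1 encodes. The muscles were snap frozen, and neither the labels nor the methods used here give the hour of dissection, the sex or the sequencing batch. Elavl1, counted over the whole gene, was at 1350 and 1190 normalized counts in control 3-8 and 3-12 and at 1210 and 1205 in muHuR-KO 1-9 and 3-9, which cannot check the deletion of a single exon.

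Reads assigned to genes, as recovered from the normalized counts, numbered between 13301715 in control 3-12 and 33348893 in muHuR-KO 3-9. Control 3-8 stood apart from the other 3 libraries: genes of low GC content were lower in it, and 1649 of the 13287 genes tested were called lower in it at an adjusted p under 0.05. Slow-fiber markers, Myh7 among them, were present in every library. All 7 of them were highest in control 3-8, where 37.5% of all genes tested were highest. Values below are the size-factor normalized counts of the deposited table, and the reads behind a member's value ranged from 64 (Per2 in control 3-12) to 14185 (Nr1d1 in muHuR-KO 1-9). In bulk muscle, fewer cells of a type and less RNA per cell cannot be told apart.

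Promoter windows are shown for 4 members because they hold the 3 elements through which clock proteins act on one another. The RefSeq table (build GRCm38.p6) gave windows from 250 bases before to 50 bases from the annotated start for 9 of the 10 members, 13 windows in all. They were searched on both strands for the E-box (CACGTG), its variant E-prime-box (CACGTT), the RORE (TAGGTCA or TGGGTCA), the D-box (TTATGTAA or TTACGTAA) and the CRE (TGACGTCA). Capitals mark the matches below, and positions are counted from the start, with -1 the base before it.
Per1 promoter, chr11:69098699-69098998, plus strand, E-box at -166: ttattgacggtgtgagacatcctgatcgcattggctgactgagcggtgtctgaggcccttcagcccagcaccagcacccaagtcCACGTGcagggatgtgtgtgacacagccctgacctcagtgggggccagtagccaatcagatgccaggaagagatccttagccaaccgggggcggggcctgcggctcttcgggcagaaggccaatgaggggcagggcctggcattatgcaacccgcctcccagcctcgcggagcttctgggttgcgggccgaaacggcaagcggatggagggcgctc
Cry1 promoter, chr10:85185005-85185304, minus strand, E-prime-box at -79 and E-box at -60: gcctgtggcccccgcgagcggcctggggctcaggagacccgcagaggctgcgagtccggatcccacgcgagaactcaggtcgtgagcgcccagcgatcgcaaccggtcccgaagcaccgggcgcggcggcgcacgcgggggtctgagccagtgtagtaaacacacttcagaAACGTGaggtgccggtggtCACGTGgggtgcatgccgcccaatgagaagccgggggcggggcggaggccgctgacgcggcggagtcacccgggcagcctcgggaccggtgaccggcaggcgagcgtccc
Per3 promoter, chr4:151044616-151044915, minus strand, D-box at -205 and -158: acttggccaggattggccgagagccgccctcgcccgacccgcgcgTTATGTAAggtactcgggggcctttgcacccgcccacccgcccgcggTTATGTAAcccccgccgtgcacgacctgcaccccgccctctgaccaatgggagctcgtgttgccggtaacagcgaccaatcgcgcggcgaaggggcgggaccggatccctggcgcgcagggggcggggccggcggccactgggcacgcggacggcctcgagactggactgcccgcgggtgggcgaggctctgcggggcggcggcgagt
Arntl promoter, chr7:113207261-113207560, plus strand, RORE at 31 bases from the start: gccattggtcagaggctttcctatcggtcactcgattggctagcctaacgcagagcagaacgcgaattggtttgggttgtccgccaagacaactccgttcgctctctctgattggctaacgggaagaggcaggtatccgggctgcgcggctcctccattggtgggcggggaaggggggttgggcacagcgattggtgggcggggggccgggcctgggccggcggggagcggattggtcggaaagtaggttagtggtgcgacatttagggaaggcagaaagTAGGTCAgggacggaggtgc
An E-box stood in the windows of 2 of the 9 members, Per1 and Cry1, in 1 window of each. Counted by window, that is 2 of the 13, against 7.15% of all 32851 windows of the table. The E-prime-box, present in 4.68% of all windows, was found at -166 in Cry2 and at -28 in Nr1d1 besides Cry1. Per3 carried the D-box in 2 copies, a motif present in 1.06% of all windows, and the RORE of Arntl was present in 6.45%. No CRE, present in 1.79% of all windows, was found in a member, and the windows of Clock, Dbp and Nr1d2 held none of the 5 motifs. These matches describe the letters of the windows only.

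Per kilobase of annotated exon, Nr1d1 was the most abundant member, with a mean level of 2917 normalized counts per kb over the 4 libraries (range 2312 to 3417). Nr1d2 followed at a mean of 465 per kb (range 175 to 620), wholly below Nr1d1 but overlapping Per1. Per1, Cry1, Dbp, Arntl, Clock and Cry2 formed a middle tier with means from 197 per kb for Per1 down to 117 per kb for Cry2, and neighbours in that order overlapped over the libraries. Per3 and Per2 were the scarcest, at means of 36.5 and 22.4 per kb, and their ranges overlapped each other but none of the other members' ranges.

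**Figure D1:**
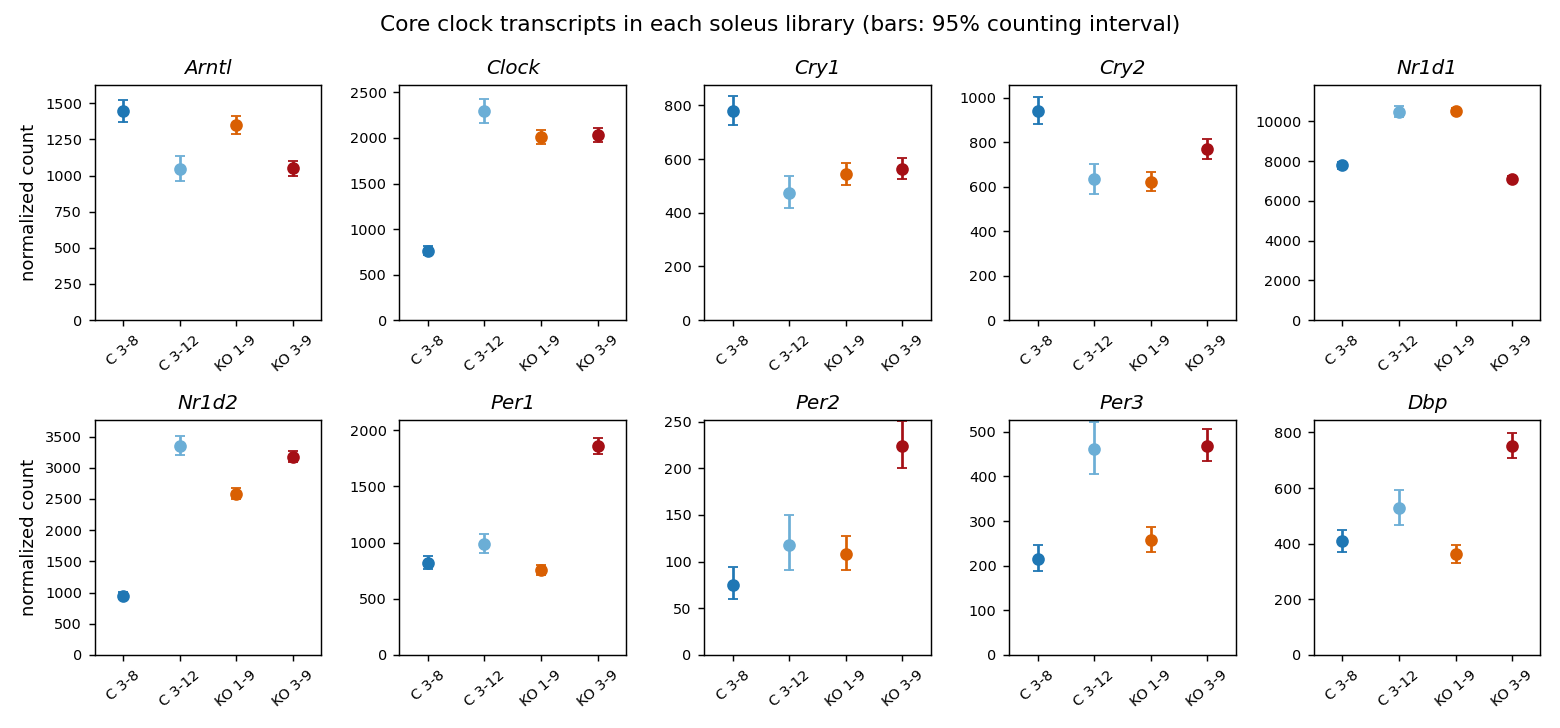
Normalized counts (y axis, from 0) of the 10 members in control (C) 3-8 and 3-12 and muHuR-KO (KO) 1-9 and 3-9, 1 point per library, with bars for the 95% counting interval of each library's reads. Per1, Per2, Per3 and Dbp were highest in muHuR-KO 3-9, Per3 nearly level with control 3-12, and Clock and Nr1d2 were lowest in control 3-8.

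The activators behaved differently from each other. Arntl, the obligate partner in the activating complex, was at 1446 normalized counts in control 3-8, 1048 in control 3-12, 1349 in muHuR-KO mouse 1-9 and 1049 in muHuR-KO mouse 3-9. Its 2 higher libraries were thus 1 control and 1 knockout, and the whole range was 1.38-fold, which 69.8% of the genes tested reached or exceeded. Clock, the other subunit, was at 764 in control 3-8 and at 2296, 2014 and 2030 in control 3-12, muHuR-KO 1-9 and muHuR-KO 3-9. Its 3.01-fold range lay almost entirely between control 3-8 and the rest. Npas2, a paralog of Clock that pairs with Arntl, followed Arntl and not Clock, at 229, 120, 237 and 143 normalized counts in the same order of libraries.

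Of the repressors, the Per genes were all highest in muHuR-KO 3-9, though Per3 was nearly level there and in control 3-12. Per1, the member of the family induced most directly by acute signals, was at 822 in control 3-8, 988 in control 3-12, 755 in muHuR-KO mouse 1-9 and 1862 in muHuR-KO mouse 3-9. Per2 was at 75.2, 118, 108 and 224 normalized counts in that order. Per3, whose mRNA is a strongly cycling clock output, was at 216 and 257 in control 3-8 and muHuR-KO 1-9, against 462 and 469 in control 3-12 and muHuR-KO 3-9. Per3 therefore fell into a low and a high pair, each holding 1 mouse of either genotype, whereas Per1 and Per2 were high in muHuR-KO 3-9 only.

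The Cry genes varied less. Cry1, the stronger repressor of the pair, was at 779 in control 3-8, 475 in control 3-12, 543 in muHuR-KO mouse 1-9 and 564 in muHuR-KO mouse 3-9. Cry2 was at 939, 633, 623 and 767 normalized counts in that order. Both were highest in control 3-8, with ranges of 1.64-fold for Cry1 and 1.51-fold for Cry2.

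In the second loop, Nr1d1 was at 7789 normalized counts in control 3-8, 10485 in control 3-12, 10514 in muHuR-KO mouse 1-9 and 7113 in muHuR-KO mouse 3-9. Its low and high libraries again each held both genotypes, but not as for Per3: control 3-12 and muHuR-KO 1-9 were the high libraries for Nr1d1. Nr1d2 was at 949 in control 3-8 against 3351, 2586 and 3178 in the others, a 3.53-fold range that 4.48% of the genes tested reached or exceeded, and its order of libraries was that of Clock. Dbp, the PAR-domain leucine zipper factor commonly used as a readout of clock phase, was at 408 in control 3-8, 528 in control 3-12, 362 in muHuR-KO mouse 1-9 and 752 in muHuR-KO mouse 3-9. Its order of libraries was that of Per1.

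Across the members, 6 of 10 (Clock, Per1, Per2, Per3, Dbp and Nr1d2) ranged at least 2-fold between the highest and the lowest library, against 24.0% of all genes tested. The median range was 1.08 on the log2 scale for the members and 0.63 for all genes. Counting error was small beside these ranges: its coefficient of variation was 12.5% for the fewest reads, those of Per2 in control 3-12. These ranges are of the values as deposited. After removing the trend with GC content in each library, the log2 range of Clock fell from 1.59 to 0.69 and that of Nr1d2 from 1.82 to 1.09. The ranges of Per1, Per2, Per3 and Dbp were then 1.38, 1.76, 1.28 and 1.08.

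Genes on the opposite strand overlap some members, and the strand setting of the counting was not given in the sources used here. Sphk2 shares 18% of the exon bases of Dbp and Thra 8.55% of those of Nr1d1. Sphk2 was at 733, 567, 527 and 562 normalized counts in control 3-8, control 3-12, muHuR-KO 1-9 and muHuR-KO 3-9, so it did not share the peak of Dbp in muHuR-KO 3-9. Thra was at 1797, 1630, 1402 and 1605, and it did not follow Nr1d1.

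Within the muHuR-KO genotype, the pair of mice differed for a defined part of the clock. Per1 was 2.47-fold higher in muHuR-KO 3-9 than in muHuR-KO 1-9 (95% counting interval 2.29 to 2.65), Per2 2.07-fold (1.70 to 2.54), Dbp 2.07-fold (1.86 to 2.31) and Per3 1.82-fold (1.60 to 2.08). These 4 of 10 members passed 1.5-fold, against 5.68% of all genes tested, and none was lower by as much. Nr1d1 went the other way, with a ratio of 0.68 (0.66 to 0.69), and Arntl was at 0.78 (0.73 to 0.83), while the intervals of Clock (0.96 to 1.06) and Cry1 (0.94 to 1.15) included no change. The intervals cover counting error only, since each library is a single mouse, so the difference is between these mice and has no replicate.

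Between the controls, control 3-12 was at least 1.5-fold above control 3-8 for 4 of 10 members, Nr1d2, Clock, Per3 and Per2, against 23.7% of all genes tested. The ratios were 3.53 for Nr1d2, 3.01 for Clock, 2.14 for Per3 and 1.57 for Per2. Cry1 was lower, at a ratio of 0.61 (0.53 to 0.70). After removing the trend with GC content in each library, the ratio was smaller for Clock (1.62) and Nr1d2 (2.05). It was larger for Per3 (2.41), Per2 (1.85), Dbp (1.73), Nr1d1 (1.66) and Per1 (1.55). All of these corrected ratios passed 1.5-fold, those of Dbp, Nr1d1 and Per1 only after the correction. The share of all genes passing after the correction was not computed.

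**Figure D2:**
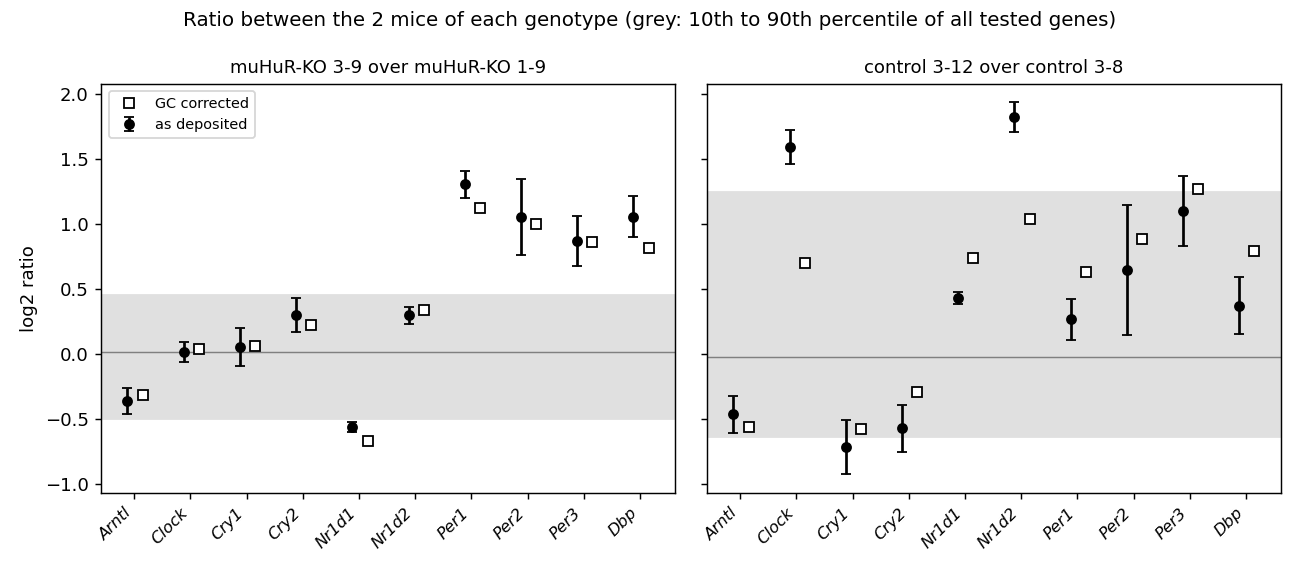
Log2 ratio (y axis) of each member between the mice of the same genotype, muHuR-KO 3-9 over 1-9 (left) and control 3-12 over 3-8 (right), as deposited with 95% counting intervals (filled) and after GC correction (open). In the knockout pair Per1, Per2, Per3 and Dbp lie above the grey band of all tested genes, which ends at 0.45 on the log2 scale.

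Ratios between members within a library do not depend on the size factors. The log2 ratio of Arntl to Dbp was 1.82 in control 3-8, 0.99 in control 3-12, 1.89 in muHuR-KO mouse 1-9 and 0.48 in muHuR-KO mouse 3-9, a 2.66-fold range. Npas2 to Dbp, a ratio not planned beforehand, spread further, 3.42-fold, at -0.83, -2.13, -0.61 and -2.38 in the same order. Cry1 to Dbp was 0.93 in control 3-8 and 0.58 in muHuR-KO 1-9, and -0.15 in control 3-12 and -0.41 in muHuR-KO 3-9. In all 3 ratios, control 3-8 and muHuR-KO 1-9 were above control 3-12 and muHuR-KO 3-9, and so the order of libraries cut across genotype. The 3 ratios are not separate observations, since each is taken to Dbp. Of their numerators, Arntl and Npas2 alone separated the same pairs of libraries and Cry1 did not. Dbp alone separated these pairs, at 408 in control 3-8 and 362 in muHuR-KO 1-9 against 528 in control 3-12 and 752 in muHuR-KO 3-9. Myh4, the type IIB myosin heavy chain of fast fibers, singled out from the fast-fiber markers after its values were seen, split the libraries in the same way, at 21982 normalized counts in control 3-8 and 18766 in muHuR-KO mouse 1-9 against 1702 in control 3-12 and 2021 in muHuR-KO mouse 3-9, a 12.9-fold range that 0.128% of the genes tested reached or exceeded. The 8 fast-fiber markers together did not share the split, summing to 1271660 in control 3-8, 1526810 in control 3-12, 1405310 in muHuR-KO mouse 1-9 and 1237310 in muHuR-KO mouse 3-9. Myh1 and Myh2 went against Myh4 between the controls, 4.21-fold and 1.61-fold higher in control 3-12 than in control 3-8. In the knockout pair each had a ratio of 1.04 for muHuR-KO 3-9 over 1-9. Tnni2, Tnnc2 and Atp2a1 were lower in control 3-12 and muHuR-KO 3-9, as Myh4 was, but at ratios of 0.78 to 0.96. Tnnt3 and Mylpf were lower in only 1 of the pairs. None of the 8 fast-fiber markers was at 0. Their part in the ratios was not tested.

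The same split held after GC correction, where Arntl to Dbp was 2.13, 0.78, 1.69 and 0.55 in the order of control 3-8, control 3-12, muHuR-KO 1-9 and muHuR-KO 3-9. The ratio of Arntl to Nr1d1 did not share it, at -2.43, -3.32, -2.96 and -2.76 as deposited, with control 3-12 lowest. The median log2 value of Arntl and Clock minus that of Per1, Per2, Per3, Dbp, Nr1d1 and Nr1d2 had also been planned. As deposited it was 0.86, 1.10, 1.65 and 0.30 in the same order and did not share the split. After GC correction it did, at 1.44, 0.80, 1.40 and 0.29. No hour of dissection is known for these mice, and 4 libraries cannot place a mouse on a daily curve, so the ratios are given as levels and were not converted to a time.

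**Figure D3:**
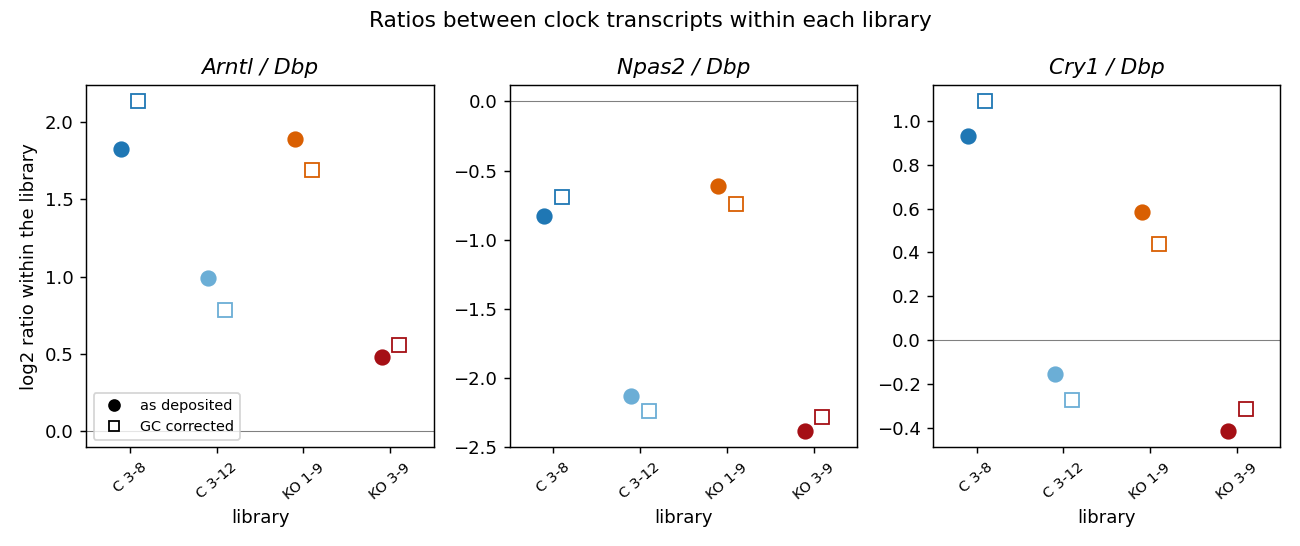
Log2 ratio (y axis) of Arntl, Npas2 and Cry1 to Dbp within each library (x axis), as deposited (filled) and after GC correction (open). In each panel control 3-8 and muHuR-KO 1-9 lie above control 3-12 and muHuR-KO 3-9. The Arntl to Dbp values are 1.82 and 1.89 against 0.99 and 0.48. The panels share Dbp as denominator and are not separate observations.

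Knockout against control, tested over both mice of each group with limma, gave no called member. On the log2 scale the members' fold changes ran from -0.16 for Cry2 to 0.72 for Per2 (SE 0.44, adjusted p = 0.9999), with a median of 0.15 against -0.01 for all genes. Per2 was at 96.5 ± 30.1 normalized counts in controls and 166 ± 81.9 in muHuR-KO (SD, n = 2 each), and Dbp at 468 ± 84.7 and 557 ± 276, so that the spread between mice of a genotype covered the difference between genotypes. For all 10 members the ranges of the groups overlapped, whereas they did not overlap for 22.6% of all genes tested. Of all genes, 0% were called, 102 had an unadjusted p under 0.05, and edgeR and DESeq2 on the recovered reads called 0 and 0. An exact permutation test of 2 against 2 mice cannot give a two-sided p below 0.3333.

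The group comparison rested on which control was used. Against control 3-8 alone, 2 of 10 members were called higher in muHuR-KO and 0 lower, against 9.69% and 0.128% of all genes tested. These were Clock (log2 fold change 1.40, SE 0.21, adjusted p = 0.0085) and Nr1d2 (1.59, SE 0.22, adjusted p = 0.0085). Per2 had a fold change of 1.04 (adjusted p = 0.187) and the other members lay between -0.49 for Cry1 and 0.68 for Per3. Both calls were lost without the filter on low values (adjusted p = 0.273 for each) and without the trend in the variance (0.0615 for each). Against control 3-12 alone, 0 members and 0% of all genes were called, although 630 genes had an unadjusted p under 0.05 and edgeR called 1 and DESeq2 9. There the fold change was -0.18 for Clock and -0.23 for Nr1d2, opposite in sign to the comparison with control 3-8, and the members ran from -0.41 for Per3 to 0.40 for Per2. Both comparisons share the muHuR-KO libraries and took their spread from that pair of mice, 1 residual degree of freedom, moderated over all genes by limma.

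Each library was also tested against the other 3. Control 3-8 had 2 of 10 members called lower and 0 higher, against 12.4% and 0.354% of all genes. Clock differed by -1.46 (SE 0.19) and Nr1d2 by -1.67 (SE 0.21) on the log2 scale, both at an adjusted p of 0.0033. Per3 (-0.82), Per2 (-0.91), Cry1 (0.57) and Cry2 (0.48) had an unadjusted p under 0.05 and did not pass adjustment.

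MuHuR-KO 3-9 had 0 called members and 0% of all genes, with 49 genes at an unadjusted p under 0.05 and 0 called by edgeR or DESeq2. The members nearest the threshold were Per1, at 1.13 (SE 0.33, unadjusted p = 0.0093, adjusted p = 0.9998), and Per2, at 1.18 (SE 0.41, unadjusted p = 0.0214, adjusted p = 0.9998). Dbp was at 0.81 and Per3 at 0.67. In muHuR-KO 1-9 the members ran from -0.60 for Per1 to 0.40 for Clock, and in control 3-12 from -0.39 for Cry1 to 0.76 for Nr1d2. For both of these libraries 0% of all genes and 0 members were called, with 178 and 310 genes at an unadjusted p under 0.05, 0 and 0 called by edgeR and 1 and 2 by DESeq2.

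The difference of control 3-8 followed GC content over the whole transcriptome. Clock and Nr1d2 have the lowest GC content of the members, 40.9% and 41.8% of the bases of their longest annotated transcript. Among the 813 genes within 1 percentage point of the GC content of Clock, the median difference of control 3-8 from the other libraries was -0.85, and Clock stood at percentile 17.7 of them. For the 922 genes as near to Nr1d2 in GC content the median was -0.72, and Nr1d2 stood at percentile 5.42. The other 8 members lie between 48.2% (Arntl) and 61.6% (Dbp), where the typical gene was level or higher in control 3-8. Per1, Per2, Per3, Dbp and Nr1d1 nevertheless were lower there, at percentiles 5.57, 2.34, 2.64, 3.72 and 6.86 of genes of like GC content. Cry1 was at percentile 91.9 and Arntl at percentile 85.2.

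**Figure D4:**
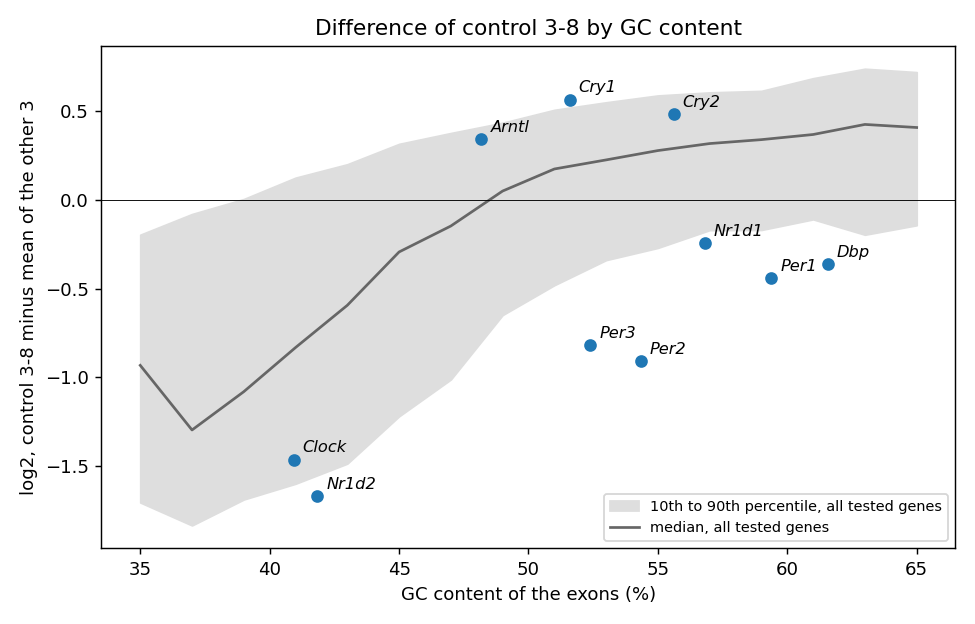
Log2 difference of control 3-8 from the mean of the other 3 libraries (y axis) against GC content (x axis, %), for the 10 members (points) and all tested genes (line: median, band: 10th to 90th percentile, in bins of GC content). GC content, labelled as that of the exons, is that of the longest annotated transcript of each gene. Per1, Per2, Per3, Dbp, Nr1d1 and Nr1d2 lie below the band at their GC content and Cry1 above it, and Clock, Arntl and Cry2 lie within it.

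After GC correction the members called against control 3-8 changed. Nr1d2 remained lower in control 3-8 than in the other libraries, at -0.96 (SE 0.20, adjusted p = 0.029), and was the 1 member of 10 called, against 2.89% of all genes called lower and 2.07% higher. Clock moved to -0.65 (adjusted p = 0.0621). In muHuR-KO against control 3-8 the corrected fold change was 0.92 for Nr1d2 (adjusted p = 0.0357) and 0.63 for Clock (adjusted p = 0.122), with 1 of 10 members called against 2.08% of all genes higher and 1.38% lower. Per2 and Per3 went from 1.04 and 0.68 to 1.26 and 0.85 without passing (adjusted p = 0.0726 and 0.153). For muHuR-KO 3-9 the correction left Per1 at 1.08 and Per2 at 1.21, also not called.

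The other clock genes were read from a list of 20, of which 19 were in the table and 17 were tested. A 2-fold range was reached by 5 of the 17, and in muHuR-KO against control 3-8, 2 of the 17 were called higher and 0 lower, where 9.69% of all genes tested were called higher. Rora was 1 of the 2. Bhlhe40 (DEC1), a repressor at E-boxes, was at 5341 in control 3-8, 2538 in control 3-12, 3891 in muHuR-KO mouse 1-9 and 2571 in muHuR-KO mouse 3-9, high in the libraries where Arntl was high. Nfil3 (E4BP4), which represses at the D-boxes that Dbp activates, was at 1014, 316, 669 and 536 in the same order, again highest in control 3-8 and muHuR-KO 1-9. A RORE stood at -12 in its promoter window.

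Tef, a PAR-domain factor like Dbp and with an E-box in its promoter window, was at 2568, 2459, 1842 and 3273. Wee1, a cell cycle kinase controlled through E-boxes in mouse liver, was at 65.4, 75.4, 57.8 and 102. As deposited, both were highest in muHuR-KO 3-9 and lowest in muHuR-KO 1-9, 1.78-fold and 1.77-fold apart, and so were Per1 and Dbp. After GC correction Per1 and Dbp were lowest in control 3-8, while Tef and Wee1 stayed lowest in muHuR-KO 1-9. Hlf, the remaining PAR-domain factor, was at 277, 215, 354 and 258 and was highest in muHuR-KO 1-9.

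Rora, an activator at ROREs, was at 72.3, 254, 188 and 207 normalized counts, lowest in control 3-8. Its log2 fold change in muHuR-KO against control 3-8 was 1.44 (SE 0.28, adjusted p = 0.0132), and the call was lost after GC correction (adjusted p = 0.248), after length correction (0.113), with no filter on low values (0.273) and with no trend in the variance (0.0615). The kinase genes Csnk1d and Csnk1e, which act on PER proteins, ranged 1.32-fold and 1.20-fold, and Btrc and Fbxw11 of the PER-degrading ligases 1.03-fold and 1.32-fold. After GC correction the log2 range of Btrc went from 0.047 to 0.93, with control 3-8 highest. Bhlhe41, Timeless and Usp2 ranged 1.23-fold, 1.82-fold and 1.31-fold. Arntl2, at a mean under 50, was called in none of the comparisons, and Rorb and Fbxl21 were below the filter.

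**Figure D5:**
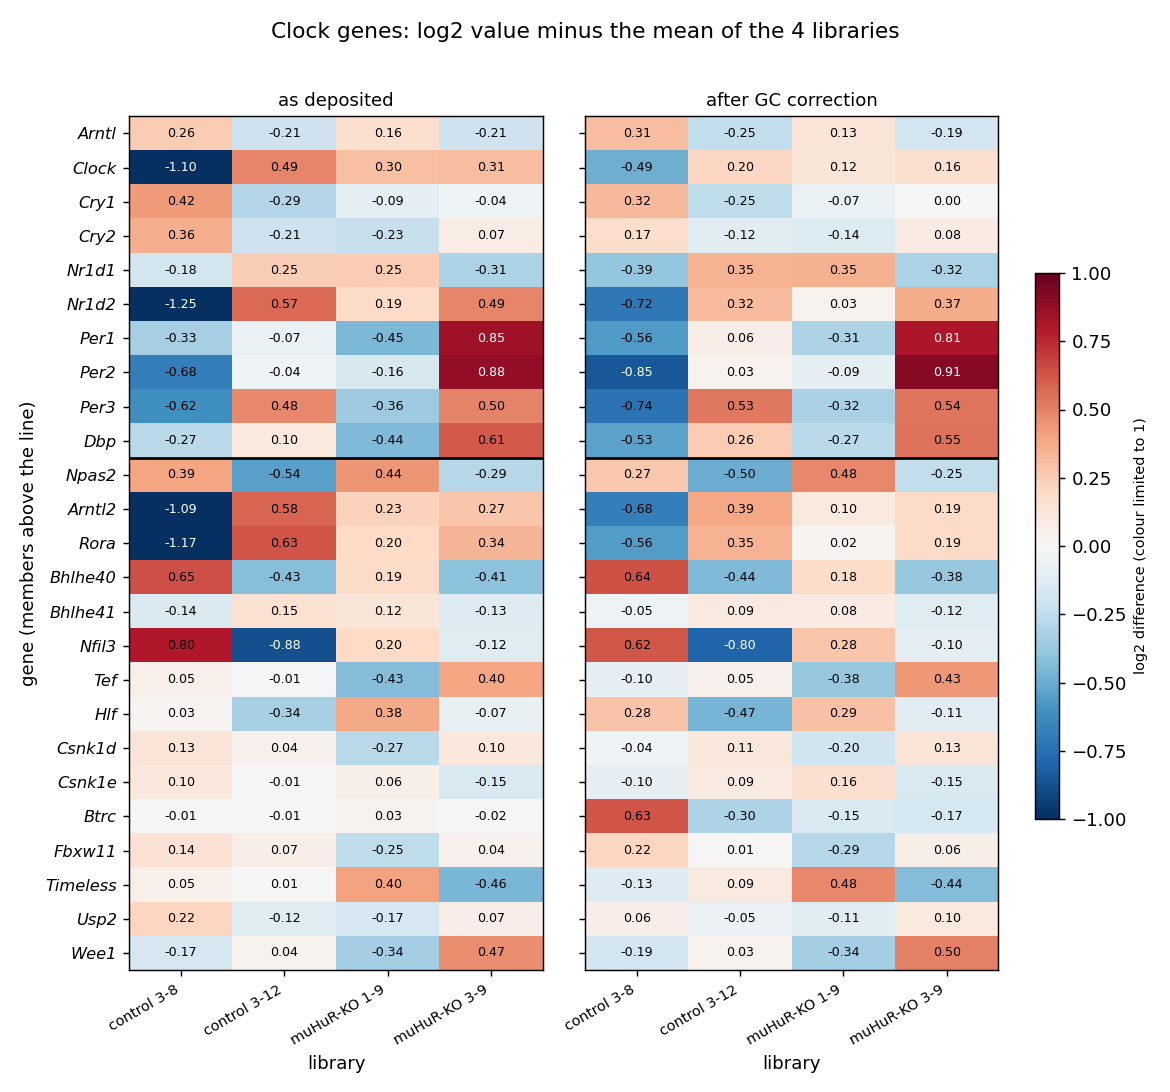
Log2 value of each clock gene (rows, members above the line) minus its mean over the 4 libraries (columns), as deposited (left) and after GC correction (right), with the value printed in each cell. Per1 and Per2 stand at 0.85 and 0.88 in muHuR-KO 3-9 as deposited and at 0.81 and 0.91 after correction, whereas Clock in control 3-8 moves from -1.10 to -0.49.

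Profiles over the 4 libraries were then compared with those of Dbp and Arntl, among 11181 genes with a mean of at least 50. The measure was the root mean square difference of centred log2 values as deposited, without GC correction. The 5 genes nearest Dbp were Sema6b, Gm5105, Klhl33, Tfcp2l1 and Prnd, at differences of 0.037 to 0.086, and they were the only genes within 0.1. Wee1 ranked 6, Per1 19, Tef 49, Per3 227 and Per2 390. The profile of Arntl was common: 464 genes lay within 0.1 of it, the nearest being Pyurf, Isca2, Clec3b, Crip2 and Emp3, and Cry1 ranked 2172. With 4 libraries the likeness is a description, and the ranks after GC correction were not computed.

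Other gene groups stood high or low in the same libraries as some members. Of 12 listed genes that glucocorticoids induce in muscle and other tissues, 9 were highest in muHuR-KO 3-9, where 13.5% of all tested genes were highest. Cebpd, a stress-induced C/EBP factor, was at 225, 153, 171 and 512 normalized counts in control 3-8, control 3-12, muHuR-KO 1-9 and muHuR-KO 3-9, and Ddit4 (REDD1), an inhibitor of mTORC1, was at 244, 212, 192 and 517. Per1 is itself a glucocorticoid-induced gene, and the part of glucocorticoid in its level in muHuR-KO 3-9 was not tested. Klf9 (1990, 4948, 4532 and 5142) was lowest in control 3-8, as were Clock, Nr1d2 and 34.9% of all tested genes. Mt2 (91.8, 77.3, 201 and 198) was higher in both muHuR-KO libraries without being called against both controls.

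Of 12 listed immediate early genes, 10 were lowest in control 3-12, against 22.5% of all tested genes. Fos was at 330, 86.5, 153 and 184 and Egr1 at 781, 340, 1123 and 1411, so that Egr1 but not Fos was highest in muHuR-KO 3-9, as Per1 was. Egr1 was also high in muHuR-KO 1-9, with a ratio of 1.26 for muHuR-KO 3-9 over 1-9, against 2.47 for Per1. Among muscle genes under clock control, Myod1, the myogenic factor whose promoter drives the Cre transgene, was at 457, 217, 397 and 227, high where Arntl was high. Pdk4, an inhibitor of pyruvate dehydrogenase, was at 46885, 104426, 88597 and 101546, and Tead1 at 12962, 26249, 23450 and 20397, each lowest in control 3-8 also after GC correction. Pdp1 (871, 1690.5, 1133 and 1345) was lowest in control 3-8 as deposited but highest there after GC correction, where its deviation from the mean of the libraries was 0.26 on the log2 scale. In the list of 8 temperature-responsive genes, 6 were highest in control 3-8, where 37.5% of all tested genes were highest. Hspa1a, Hspa1b and Dnajb1 had ratios of control 3-12 over control 3-8 of 0.46, 0.47 and 0.53. Hsp90aa1, at 1111, 3565, 2368 and 2808, was the 1 gene of that list lowest in control 3-8.

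Markers of other cells differed between the libraries too. All 6 fibroblast markers and 5 of 5 macrophage markers were highest in muHuR-KO 1-9, where 21.2% of all tested genes were highest. Their summed levels there were 53796 and 1209, against 30131 to 33813 and 646 to 783 in the other libraries. Adipocyte markers were highest in control 3-12 (sum 1163) and lowest in control 3-8 (384), 5 of 5 in each case. For all tested genes these shares were 27.8% highest in control 3-12 and 34.9% lowest in control 3-8. Schwann cell markers summed to 5254 in muHuR-KO 3-9, 4628 in control 3-8, 2811 in muHuR-KO 1-9 and 2470 in control 3-12. Endothelial markers summed to between 12832 in muHuR-KO 3-9 and 17629 in muHuR-KO 1-9. No listed fibroblast, macrophage, adipocyte, Schwann or endothelial marker in the table was at 0 in any library. The part of cell composition in the members' levels was not tested.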

How the data were processed

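Total RNA of 4 soleus muscles, 2 per genotype, was sequenced as 1 library per mouse. The submitters' processing notes name TopHat2 2.0.10, an aligner, HTSeq 0.6.1, a read counter, DESeq2 and the build mm10 (GRCm38). The annotation and strand setting are not given in the sources used here. The deposited values are a signal, gene counts divided by DESeq2 size factors, and 7 further deposited columns hold the authors' own comparison (mean, fold changes, error, statistic and p-values), which were not used. Whole reads were recovered: 100% of values came out whole within 0.01 reads in each library. The members and lists were chosen with earlier results of these data known.

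Genes averaging 10 or more (13287) entered the fit of log2(value + 1), made with limma 3.58.1 (R 4.3.3, eBayes with trend, Benjamini-Hochberg adjustment over all genes, threshold 0.05), and fold changes are on that scale, which understates the change of low genes. The comparisons were muHuR-KO against both controls, against each control, and each library against the other 3. A lone library was assumed to vary like the rest. As alternatives, count tests of the recovered reads with edgeR 4.0.16 called 1387 genes, and with DESeq2 1.42.0 974 genes, in muHuR-KO against control 3-8, where limma called 1304. The trend with GC content was removed per library by loess with a span of 0.4. GC content was that of the longest annotated transcript of a gene (GENCODE annotation of the same build, 99.3% of tested genes). Counting intervals are exact, at 95%, and cover counting error only. The libraries are separate mice, and none was a copy of another. Named genes were the 10 members, the other clock genes with reads (some are not reported here), up to 4 genes per other list with the widest range over the libraries at a mean of at least 50, Elavl1, and the 5 genes nearest Arntl and Dbp. Sphk2 and Thra, named for their overlap, were added after their values were seen. Myh7 was named as a defining marker. The fits were tested on simulated data.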

Additional observations from a re-analysis of the deposited data

How the results depend on the processing

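No paired analysis was possible because the labels give mouse numbers and no replicate numbers (1 and 2 were given here in accession order), and although the study calls its controls littermates, no source used here says which mice share a litter. The 4 Arntl to Dbp ratios moved by less than 1 SD of their group under pseudocounts of 0.5 and 5 and the GC and length corrections, though the highest library went from muHuR-KO 1-9 (1.89 as deposited) to control 3-8 (2.13 after GC and 2.09 after length correction). In muHuR-KO against control 3-8, where 1304 genes were called, 456 were called after GC correction, 637 after length correction, and 0 both with no filter on low values and with no trend in the variance. The members called there, 2 of 10, went to 1 after GC and after length correction and to 0 with no filter and with no trend. Control 3-8 against the other libraries went from 1696 genes and 2 members to 655 and 1 after GC correction and to 0 and 0 with no filter on low values. In muHuR-KO against control 3-12, where limma called 0, 20 genes were called after GC correction, 9 by DESeq2 and 1 by edgeR, and 2 without control 3-8. DESeq2 called 2 genes for control 3-12 and 1 for muHuR-KO 1-9 against the other libraries. Nr1d1 turned from -0.063 to 0.039 in muHuR-KO against both controls after GC correction. The cause of these changes was not tested.

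Leaving out 1 library in turn moved the count for muHuR-KO against both controls between 0 and 1266 genes and its members called between 0 and 2, both highest without control 3-12, and without control 3-8 the count was 2. The counts ran from 0 to 21 for control 3-12, 0 to 11 for muHuR-KO 1-9 and 0 to 6 for muHuR-KO 3-9 against the other libraries. In muHuR-KO against both controls the log2 fold changes ran from -0.28 to 0.18 for Arntl, -0.18 to 1.40 for Clock, -0.25 to 1.05 for Per1, -0.41 to 0.68 for Per3, -0.49 to 0.22 for Cry1, -0.44 to 0.13 for Cry2, -0.36 to 0.69 for Dbp, -0.35 to 0.22 for Nr1d1 and -0.23 to 1.59 for Nr1d2. For muHuR-KO 3-9 against the other libraries they ran from -0.083 to 0.71 for Clock, -0.21 to 0.15 for Cry1 and -0.0076 to 0.29 for Cry2, and stayed positive for Per1 (1.05 to 1.24) and Dbp (0.69 to 0.97). Fits of muHuR-KO against a single control without a muHuR-KO library had no residual degrees of freedom and were not made. Depth limits Per2 most, with 64 reads in the shallowest library.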
